A study of Mus musculus with 16 samples.

Results

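Lipid-associated macrophage markers are genes that mark a state of tissue macrophages seen where dying, lipid-laden cells are cleared, as in fatty liver and obese fat tissue. The 10 genes described here, Trem2, Gpnmb, Mmp12, Cd9, Spp1, Fabp5, Itgax, Cd68, Lgals3 and Cd63, were taken by name from the 78317 genes of a mouse liver RNA-seq series. All 10 were found and all 10 passed the filter on low counts, which left 14781 genes. The study asked how a high fat diet changes the liver transcriptome in each sex. It has 16 libraries of poly(A) RNA from powdered whole liver of wild-type C57BL/6J mice, 4 libraries in each of 4 groups. The groups are females on normal chow, females on the high fat diet, males on normal chow and males on the high fat diet. Chow had 4.5% and the high fat diet 60% of calories from fat. The mice came at 6 weeks of age and were fed for 10 weeks, so all groups were of like age. The diets have different makers, and what else differs between them cannot be told apart from fat. Nothing in the labels says that each library is a separate mouse, so p-values measure the spread between these libraries.

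TREM2 is a surface receptor for lipids and lipoproteins on macrophages that signals through the adaptor TYROBP to the kinase SYK. Macrophages that take up lipid by this route load their lysosomes, and they carry a recognisable set of lysosomal, adhesion and secreted proteins. In liver these cells stand beside the resident Kupffer cells, and some derive from blood monocytes. Several of the genes are not private to macrophages: Spp1 is also made by bile duct cells, and Cd9, Cd63 and Fabp5 are used by many cell types.

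The libraries held 22228115 to 41420589 estimated counts, and values below are CPM, counts scaled to a common library size with TMM factors. General macrophage markers were detected in every library, with the 11 listed genes summing to 255 to 831 CPM. Resident Kupffer cell markers summed to 183 to 544 CPM over 7 genes. Hepatocyte markers summed to 53316 to 117132 CPM over 7 genes, so the members are minor transcripts of a hepatocyte-rich tissue. In whole liver, fewer cells of a type and less RNA per cell cannot be told apart. Male high fat diet replicates 2 and 3 were closer to each other than any other pair of a group. Their counts differed by a chi-square of 4.07 per gene, against at least 20.8 for the other pairs. The values with these averaged are therefore given where a call described here changed, except for marker list counts between the sexes.

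Per length, the 10 genes spanned a wide range of levels. In females on chow the mean level ran from 55.7 TPM, a unit that divides by transcript length, for Spp1 and 43.7 TPM for Fabp5 down to 0.635 TPM for Trem2 and 0.0700 TPM for Gpnmb. Below Fabp5, Cd9 came next. Cd68 at 9.97 TPM, Cd63 at 6.52 and Lgals3 at 4.28 TPM followed, and from Cd9 to Lgals3 each gene overlapped the next in that order over the 4 libraries. Mmp12 at 0.438 TPM overlapped both Trem2 above it and Itgax, at 0.228 TPM, below it. In males on chow the order was the same but for the top, where Fabp5 had 73.4 and Spp1 45.0 TPM with overlapping libraries. In males on the high fat diet Mmp12 stood at 6.40 TPM beside Lgals3 at 6.47 TPM, and Gpnmb at 1.24 TPM stood above Itgax at 0.528 TPM, although their libraries overlapped.

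High fat feeding raised 5 of the 10 genes in females and 4 in males, and lowered 2 in males. Gpnmb, Mmp12 and Cd68 rose in both sexes. Itgax and Lgals3 passed the test in the female contrast and Trem2 in the male one, and Cd9 and Fabp5 fell in males. With only the 2 diet groups of a sex in the fit, Itgax and Lgals3 were instead called in males and not in females, and Cd68 was the 1 female call. Calls are an adjusted p under 0.05 in edgeR's quasi-likelihood test on all 16 libraries, adjusted by Benjamini-Hochberg over all tested genes. Over all tested genes 5.74% were called higher and 5.76% lower in females, and 6.03% higher and 5.36% lower in males. The female count was 2 without high fat replicate 1 or 4 or chow replicate 3, 3 without chow replicate 1 or 2, and 1 without chow replicate 4. The male count of 4 raised genes was 2, Gpnmb and Mmp12, without male high fat replicate 4 or chow replicate 1, and 3 or 4 without any other library. The median log2 fold change of the 10 genes was 1.03 in females and 0.77 in males, beside medians of 0.00 and 0.01 over all tested genes. The 2 diet groups did not overlap for 2 of the 10 genes in females (Gpnmb and Cd68) and for 9 in males (all but Spp1), against 18.3% and 18.5% of all tested genes.

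**Figure D1:**
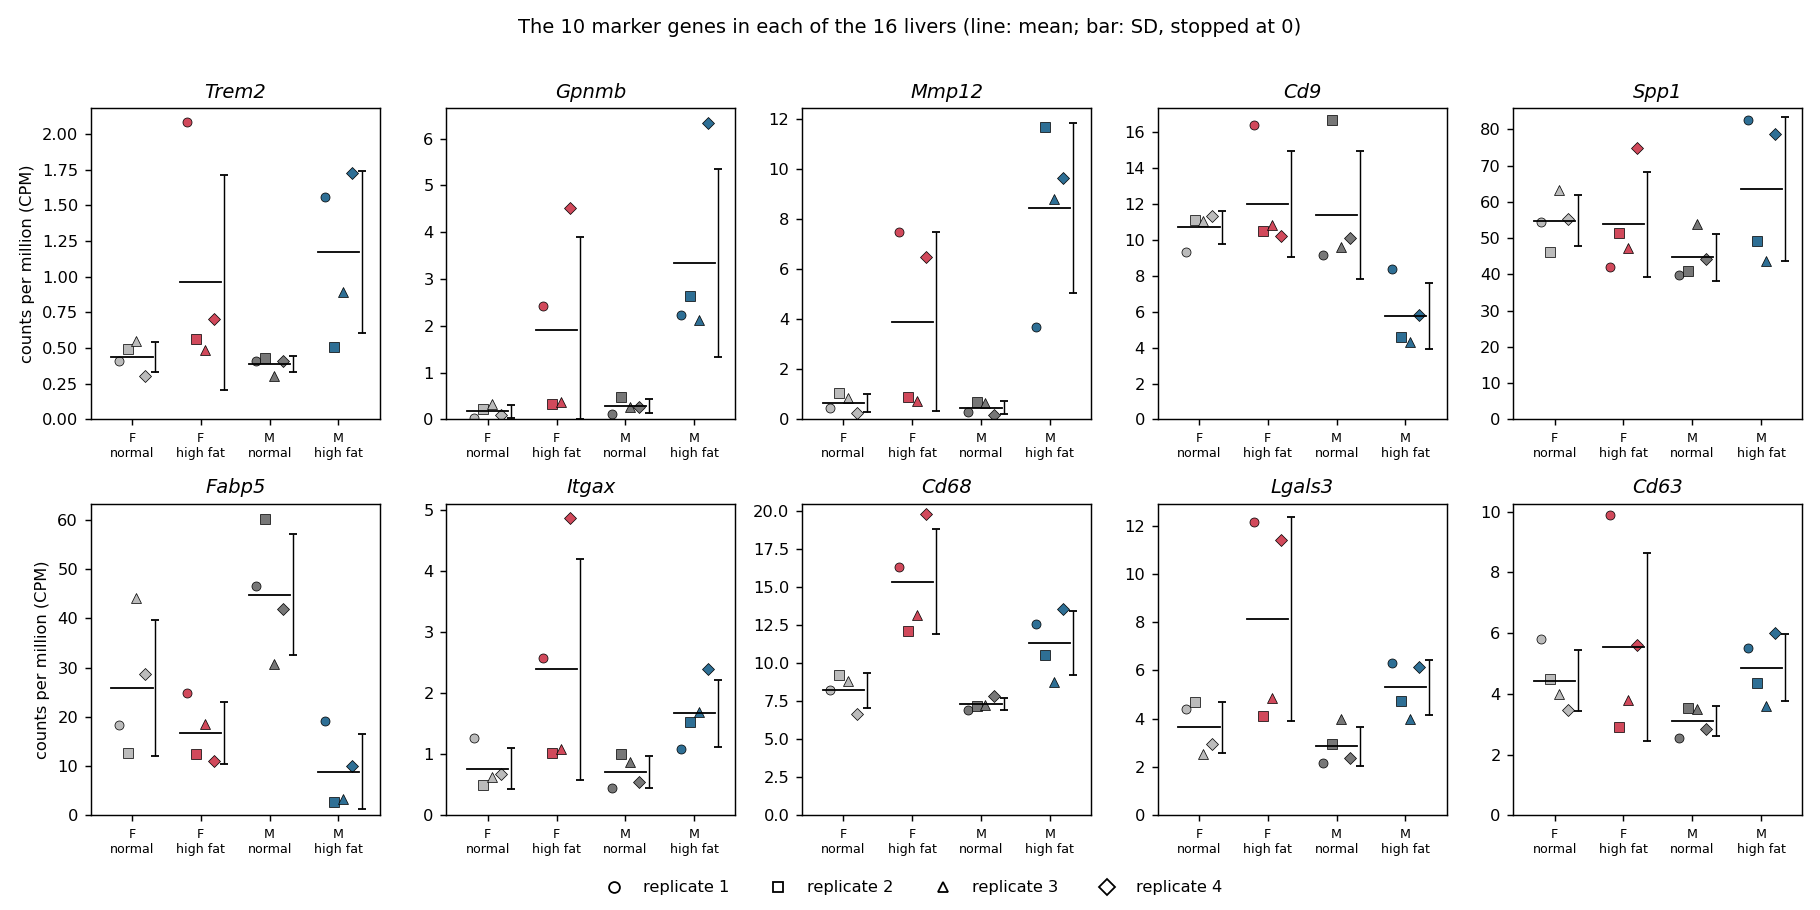
CPM (vertical axis, linear, a scale of its own in each panel) of each gene in the 16 libraries, with the groups along the horizontal axis and a symbol for each replicate; lines are means and bars the SD over 4 libraries. Gpnmb and Mmp12 in males separate by diet without overlap, whereas in females on the high fat diet replicates 1 and 4 carry the high values.

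The receptor Trem2 had few counts, between 7 and 69 in any library. In females it measured 0.408, 0.491, 0.549 and 0.304 CPM on chow and 2.08, 0.562, 0.486 and 0.706 CPM on the high fat diet (replicates 1 to 4). High fat replicate 1 was far above chow, and replicates 2 and 4 lay above the highest chow library by much less. Replicate 3 was inside the chow range. The log2 fold change was 1.15 ± 0.47 (SE) and did not pass (adjusted p = 0.118, edgeR), with a 95% interval from 0.23 to 2.07. In males Trem2 measured 0.412, 0.428, 0.302 and 0.406 CPM on chow and 1.56, 0.509, 0.893 and 1.73 CPM on the high fat diet. Every male high fat library lay above every chow library, and replicates 1 and 4 were the highest. The male rise of 1.57 ± 0.48 passed narrowly (adjusted p = 0.0403, edgeR). It was no longer called without any 1 of the male libraries other than high fat replicate 2, nor without female chow replicate 1, 2 or 3, with adjusted p from 0.0501 to 0.121, nor on log2(TPM + 1) (0.0661).

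Gpnmb encodes a transmembrane glycoprotein of lysosomes and melanosomes whose transcript climbs in lipid-loaded macrophages. In females on chow it measured 0.0371, 0.215, 0.329 and 0.101 CPM, which are 1 to 9 counts a library. On the high fat diet females had 2.42, 0.331, 0.374 and 4.51 CPM. Replicates 1 and 4 were far above chow, while replicates 2 and 3 lay just above the highest chow library. The fold change was 3.47 ± 0.84 on the log2 scale (adjusted p = 0.0156, edgeR), and the call was lost without female chow replicate 1 (0.0501) or 4 (0.0540). It was also lost with no filter on low counts (0.0546), with only the female groups in the fit (0.0504) and on log2(TPM + 1) (0.0931). Males went from 0.124, 0.485, 0.259 and 0.271 CPM on chow to 2.23, 2.65, 2.13 and 6.33 CPM on the high fat diet. All 4 male high fat libraries were high, and replicate 4 stood above the rest. The male rise of 3.48 ± 0.78 (adjusted p = 0.00987, edgeR) stayed called in each of 24 alternative fits.

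Mmp12, the macrophage metalloelastase, is a secreted protease that cuts elastin and other matrix proteins. In females it measured 0.445, 1.07, 0.878 and 0.279 CPM on chow and 7.49, 0.893, 0.748 and 6.51 CPM on the high fat diet. Replicates 1 and 4 were several times above any chow library, whereas replicates 2 and 3 lay inside the chow range. The female fold change of 2.56 ± 0.75 (adjusted p = 0.0418, edgeR) was lost in 17 of 24 alternative fits. Those include the fits without any 1 of the female libraries other than high fat replicates 2 and 3, without male high fat replicate 2, 3 or 4, and without male chow replicate 1 or 3 (adjusted p from 0.0501 to 0.114). With male high fat replicates 2 and 3 averaged it was 0.0509. Males had 0.288, 0.713, 0.648 and 0.189 CPM on chow and 3.68, 11.7, 8.80 and 9.65 CPM on the high fat diet. Here replicate 1 was the lowest of the high fat libraries and still above all chow libraries. The male rise of 4.20 ± 0.79, or 18.4-fold (adjusted p = 0.00453, edgeR), was called in each of the 24 alternative fits.

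The 250 bases before the annotated starts of these 3 genes are printed because Gpnmb and Mmp12 carried the largest rises and Trem2 names the receptor of the pathway. They come from RefSeq on GRCm38.p6, 5′ to 3′ on the gene's strand, which is the plus strand for all 3. Mmp12 has 2 annotated starts. Capitals mark matches on either strand to the core motifs of factors active in macrophages. These are GAGGAA for PU.1, TGANTCA (N is any base, a loose form) for AP-1, CATGTG for the M-box and CACGTG for the E-box of the MITF and TFE factors.
Trem2, chr17:48346151-48346400: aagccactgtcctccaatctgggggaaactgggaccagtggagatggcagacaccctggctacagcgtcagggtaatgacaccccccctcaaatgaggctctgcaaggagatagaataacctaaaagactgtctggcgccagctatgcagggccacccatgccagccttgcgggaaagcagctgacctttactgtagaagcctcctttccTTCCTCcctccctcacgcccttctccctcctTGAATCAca
Gpnmb, chr6:49036268-49036517: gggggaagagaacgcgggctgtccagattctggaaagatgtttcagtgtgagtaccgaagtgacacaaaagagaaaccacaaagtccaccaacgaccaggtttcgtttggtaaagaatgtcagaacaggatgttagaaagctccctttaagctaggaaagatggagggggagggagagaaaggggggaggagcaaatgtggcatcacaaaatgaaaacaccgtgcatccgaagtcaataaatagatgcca
Mmp12, upstream start, chr9:7344147-7344396: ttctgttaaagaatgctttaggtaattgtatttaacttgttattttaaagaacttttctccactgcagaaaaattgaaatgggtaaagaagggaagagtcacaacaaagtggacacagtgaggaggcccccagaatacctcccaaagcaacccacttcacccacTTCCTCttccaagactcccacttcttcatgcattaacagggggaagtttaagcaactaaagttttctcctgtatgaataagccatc
Mmp12, downstream start, chr9:7347124-7347373: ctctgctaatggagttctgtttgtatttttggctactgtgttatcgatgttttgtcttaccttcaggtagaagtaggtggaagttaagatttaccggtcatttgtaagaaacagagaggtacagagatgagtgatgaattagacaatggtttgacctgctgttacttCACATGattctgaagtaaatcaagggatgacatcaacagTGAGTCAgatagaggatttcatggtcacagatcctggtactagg
The Trem2 window held a PU.1 core beginning 40 bases before the start, on the minus strand. At 9 bases it held TGAATCA, a match only to the loose AP-1 letters. The upstream Mmp12 window held a PU.1 core at 86 bases. The downstream one held an M-box at 83 bases and an AP-1 motif at 44 bases. The Gpnmb window held none of these letters, which says nothing of the factors themselves. Over the 9 genes that the promoter table held (11 windows, all members but Fabp5), the PU.1 core was found for 5 genes, Trem2, Mmp12, Spp1, Cd68 and Cd63. TGANTCA was found for 4, as TGAATCA for Trem2 and as TGAGTCA for Mmp12, Itgax and Cd68. The M-box was found for 2, Mmp12 and Cd9, and the E-box for 0. Counted by window, 5 of the 11 member windows held the PU.1 core, 4 TGANTCA, 2 the M-box and 0 the E-box. Of all 32851 windows in the table, 23.3% held the PU.1 core, 6.75% TGANTCA, 12.3% the M-box and 6.02% the E-box. The matches do not overlap each other in the printed windows. Bases just after the start were found in a GENCODE M21 transcript of the gene for Trem2 and the downstream Mmp12 start, and not for Gpnmb and the upstream one.

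Of the lysosomal and endosomal members, Cd68 rose in both sexes and Cd63 passed in neither. Cd68 encodes a heavily glycosylated lysosomal membrane protein used as a general macrophage marker. It measured 8.23, 9.26, 8.82 and 6.64 CPM in chow females and 16.4, 12.1, 13.2 and 19.8 CPM in high fat females. The female groups were fully apart, and the rise of 0.90 ± 0.16 on the log2 scale (adjusted p = 0.00193, edgeR) was called in each of 24 alternative fits. In males Cd68 went from 6.92, 7.22, 7.26 and 7.88 CPM to 12.6, 10.5, 8.80 and 13.5 CPM. The male groups did not overlap either, and the rise was 0.63 ± 0.16 (adjusted p = 0.0183, edgeR). That call was lost without male high fat replicate 4 (0.0669) or male chow replicate 1 (0.0518).

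Cd63, a tetraspanin of late endosomes and exosomes, measured 5.82, 4.48, 3.99 and 3.47 CPM in chow females and 9.88, 2.91, 3.81 and 5.61 CPM in high fat females. Replicate 1 alone stood above chow. In males it measured 2.55, 3.54, 3.50 and 2.84 CPM on chow and 5.50, 4.35, 3.61 and 6.02 CPM on the high fat diet, just without overlap. Its log2 fold changes were 0.33 ± 0.29 in females (adjusted p = 0.499, edgeR) and 0.64 ± 0.30 in males (adjusted p = 0.174), neither past the threshold. The intervals reached from -0.24 to 0.90 in females and from 0.05 to 1.23 in males.

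Among the surface adhesion and lectin genes, Itgax and Lgals3 rose in females with high replicates 1 and 4. Itgax encodes the integrin CD11c, found on dendritic cells and on macrophages of inflamed fat tissue. It measured 1.26, 0.491, 0.622 and 0.684 CPM in chow females and 2.57, 1.03, 1.08 and 4.87 CPM in high fat females, so that replicates 2 and 3 fell below the highest chow library. The rise was 1.64 ± 0.46 (adjusted p = 0.0281, edgeR). It was lost without female high fat replicate 1 (0.0554) or 4 (0.141), and without female chow replicate 2, 3 or 4 (0.0683 to 0.0818). With only the female groups in the fit it was 0.0610. In males Itgax measured 0.453, 0.999, 0.864 and 0.541 CPM on chow and 1.08, 1.53, 1.68 and 2.39 CPM on the high fat diet. The male groups did not overlap, but the log2 fold change of 1.21 ± 0.47 was not called (adjusted p = 0.101, edgeR). It was called with only the male groups in the fit (0.0484).

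Lgals3 encodes galectin-3, a secreted and cytosolic lectin abundant in phagocytes. It measured 4.41, 4.69, 2.52 and 2.96 CPM in chow females and 12.1, 4.10, 4.86 and 11.4 CPM in high fat females. Replicates 1 and 4 were well above chow and replicate 2 was inside the chow range. The female rise of 1.16 ± 0.33 (adjusted p = 0.0307, edgeR) was lost without high fat replicate 1 (0.0966) or 4 (0.102) and without chow replicate 3 or 4 (0.0813 and 0.0825). Fitting only the female groups (0.0795) or dropping the filter on low counts (0.0871) ended the call too. Males had 2.18, 2.94, 3.98 and 2.35 CPM on chow and 6.32, 4.72, 3.99 and 6.15 CPM on the high fat diet, with the lowest high fat library at the level of the highest chow library. The male value of 0.89 ± 0.33 was not called (adjusted p = 0.0941, edgeR), and was called with only the male groups in the fit (0.0325).

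Cd9 and Fabp5 went the other way in males. Cd9, a plasma membrane tetraspanin that organises integrins, measured 9.14, 16.7, 9.64 and 10.1 CPM in chow males and 8.36, 4.62, 4.33 and 5.80 CPM in high fat males. Every high fat male was below every chow male. It fell by 0.99 on the log2 scale (SE 0.22, adjusted p = 0.00913, edgeR), a call kept in each of 24 alternative fits. Females had 9.34, 11.1, 11.1 and 11.3 CPM on chow and 16.4, 10.5, 10.8 and 10.2 CPM on the high fat diet. Apart from replicate 1 the high fat females lay inside the chow range, and the change of 0.16 ± 0.22 was not called (adjusted p = 0.668, edgeR).

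Fabp5 encodes a cytosolic fatty acid carrier of macrophages, skin and fat. It measured 46.5, 60.2, 30.7 and 41.8 CPM in chow males and 19.2, 2.78, 3.40 and 9.92 CPM in high fat males. All high fat males were lower, and the closely matched replicates 2 and 3 were the lowest. It fell by 2.35 on the log2 scale (SE 0.58, adjusted p = 0.0200, edgeR). The call was lost with replicates 2 and 3 averaged (0.0513), without replicate 3 (0.0541) and with only the male groups in the fit (0.0642). Females had 18.4, 12.6, 44.0 and 28.7 CPM on chow and 24.8, 12.4, 18.5 and 11.0 CPM on the high fat diet. The female groups overlapped broadly, with a log2 fold change of -0.63 ± 0.55 (adjusted p = 0.493, edgeR).

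Spp1 encodes osteopontin, a secreted matrix protein that binds integrins and CD44. In females it measured 54.3, 46.3, 63.3 and 55.2 CPM on chow and 42.0, 51.3, 47.3 and 74.7 CPM on the high fat diet. The female groups overlapped, and the log2 fold change of -0.03 ± 0.20 (adjusted p = 0.954, edgeR) had an interval from -0.43 to 0.37. In males it measured 39.7, 40.9, 54.0 and 44.3 CPM on chow and 82.6, 49.2, 43.6 and 78.8 CPM on the high fat diet. Replicates 1 and 4 were high and replicates 2 and 3 inside the chow range. The male value of 0.51 ± 0.20 was not called (adjusted p = 0.119, edgeR), and was called without high fat replicate 3 (0.0496).

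**Figure D2:**
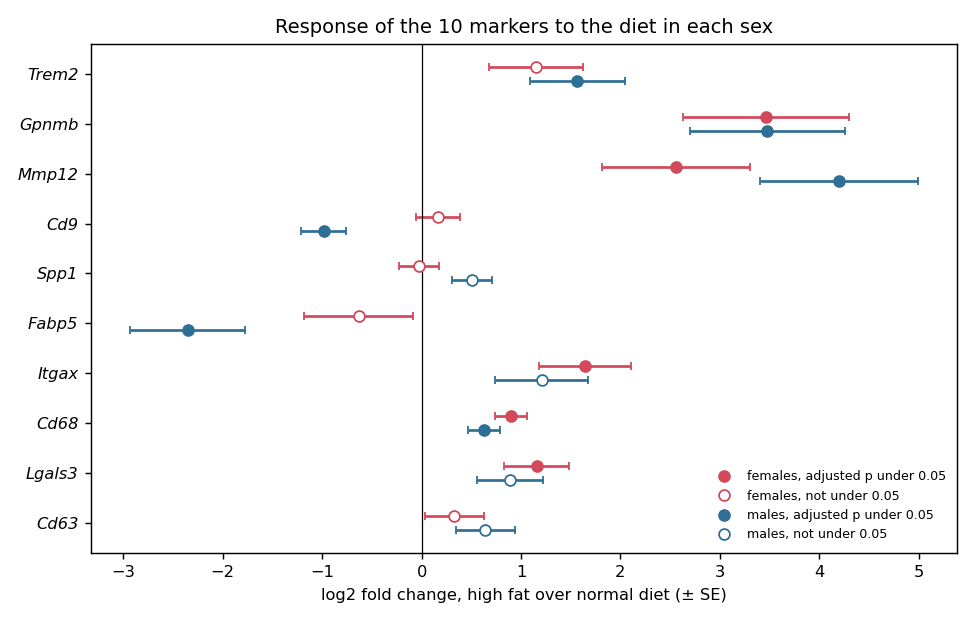
Log2 fold change of high fat over normal diet (horizontal axis) with its SE for each gene in females and males; filled points have an adjusted p under 0.05. Gpnmb stands at 3.47 in females and 3.48 in males, while Cd9 and Fabp5 lie left of 0 in males with filled points and open in females.

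The difference of the diet response between the sexes was tested directly, and 0 of the 10 genes passed, against 0.677% of all tested genes. By the same edgeR test 2 genes, Fabp5 and Cd9, had an unadjusted p under 0.05. The DESeq2 Wald test called 1 (Cd9). The response of Cd9 was higher in females by 1.15 ± 0.31 on the log2 scale (adjusted p = 0.105, edgeR). It passed in the DESeq2 test (0.0233) and without male high fat replicate 1 (0.0235). For Fabp5 the female response was higher by 1.72 ± 0.78 (adjusted p = 0.377, edgeR). For Gpnmb the responses differed by -0.01 (adjusted p = 0.999, edgeR). Its fold changes had an SE of 0.84 in females and 0.78 in males, so an equal response is not shown. For Mmp12 the responses differed by -1.64 ± 1.08 (adjusted p = 0.568, edgeR). Between females and males on chow 0 of the 10 genes differed by edgeR, and 0 had an unadjusted p under 0.05, where 15.7% of all tested genes were called. No alternative tool called any of them there. On the high fat diet 1 differed, Cd9, where 20.4% of all tested genes were called. Cd9 was higher in females by 1.06 ± 0.22 (adjusted p = 0.00369, edgeR). Cd68 was called higher in females too by DESeq2 (0.0401), on TPM values, and without female high fat replicate 2 or 3, female chow replicate 4 or male high fat replicate 1 or 4. Fabp5 was called without male high fat replicate 1 (0.0482).

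Within a group the genes tended to be high or low in the same libraries. In high fat females replicates 1 and 4 were the highest pair for 7 of the 10 genes, and in high fat males replicates 1 and 4 were too, again for 7 genes. The share of all tested genes with this highest pair was not computed. In high fat males the whole libraries split likewise. Replicates 1 and 4 differed by a chi-square of 55.6 per gene, and by 158 to 308 from replicates 2 and 3. In high fat females replicate 4 was closer to replicates 2 and 3 (46.1 and 48.5) than to replicate 1 (75.5). After each gene's group mean was subtracted, the 45 pairs of members had a median Pearson r of 0.51 over 16 libraries, with values from -0.21 to 0.88. Without high fat female replicates 1 and 4 the median was 0.47. The closest pairs were Lgals3 with Cd63 (0.88) and Gpnmb with Mmp12 (0.82). Cd9 tracked Fabp5 (0.73), whereas Mmp12 with Fabp5 gave the lowest value. All values share their library and its scaling, so these correlations are a description.

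**Figure D3:**
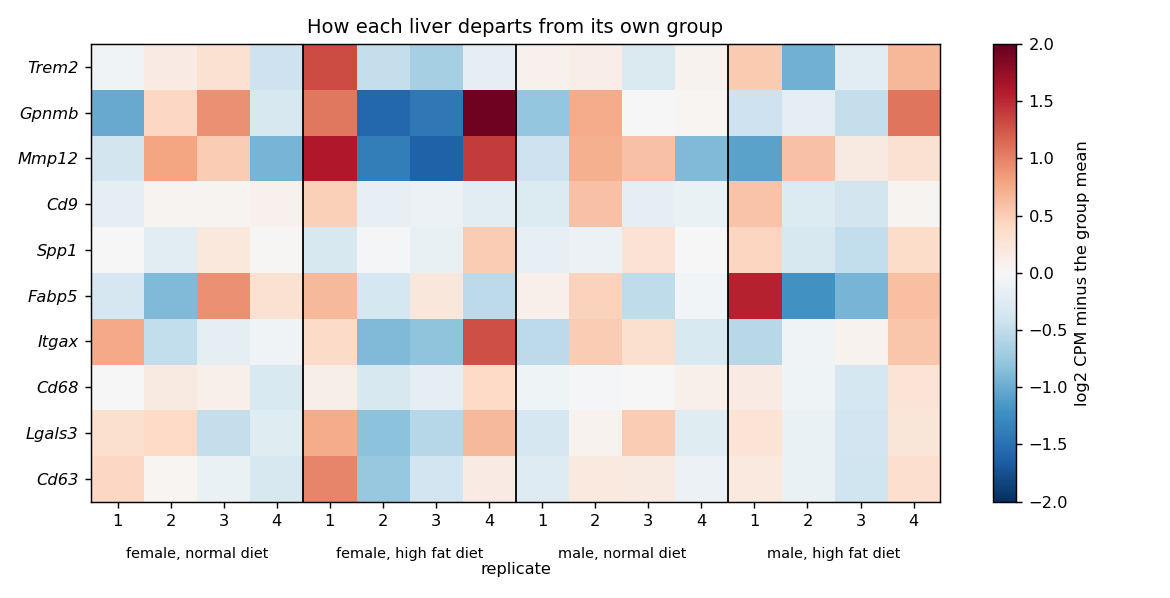
Log2 CPM of each gene minus its own group mean (colour, red above and blue below) in the 16 libraries, grouped by sex and diet. In high fat females replicates 1 and 4 are red for Gpnmb and Mmp12 and replicates 2 and 3 blue, and in high fat males Fabp5 is red in replicate 1 and blue in replicates 2 and 3.

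Monocyte and macrophage marker sums were highest in replicates 1 and 4 of both high fat groups. This did not hold for every list, as sinusoidal endothelial markers summed to 138, 180, 157 and 171 CPM in high fat females. In high fat females the monocyte markers summed to 33.7, 16.6, 18.1 and 33.2 CPM over replicates 1 to 4, against 10.9 to 14.6 CPM on chow. The high pair was again replicates 1 and 4. In males the monocyte sums were 21.3, 14.3, 12.3 and 18.6 CPM on the high fat diet and 7.86 to 14.4 CPM on chow. Macrophage markers summed to 574, 548, 449 and 831 CPM in high fat females against 279 to 420 on chow. In high fat males they summed to 587, 325, 296 and 518 CPM against 255 to 456 on chow, overlapping. The part of these cells in the members' changes was not tested by these sums.

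Of the 11 general macrophage markers 3 rose in females (Cybb, Csf1r and Aif1) and 0 in males by edgeR, where 9 and 1 had an unadjusted p under 0.05. The median log2 fold changes were 0.65 and 0.20. With a library left out the female count ran from 1, without high fat replicate 4 or chow replicate 4, to 9, without high fat replicate 3. It was 10 on either TPM scale, 9 by DESeq2 and 8 with only the 2 groups compared. It was 5 to 8 without female chow replicate 2, male high fat replicate 1 or 3, or male chow replicate 1 or 2, and 6 with male high fat replicates 2 and 3 averaged. In males DESeq2 and limma called 0 as well. Adgre1, the F4/80 antigen, changed by 0.82 ± 0.26 in females (adjusted p = 0.0556, edgeR) and 0.30 ± 0.26 in males (adjusted p = 0.507). Of the 7 Kupffer cell markers 1, Cd5l, was called in females and 0 in males by edgeR, with 4 and 0 at an unadjusted p under 0.05. Cd5l was not called without female high fat replicate 1 or 4, female chow replicate 1, 3 or 4, male high fat replicate 4 or male chow replicate 3 (adjusted p from 0.0537 to 0.131). The female count was 3 without male high fat replicate 1 or 3 and 2 without male chow replicate 2, and the male count was 1 without male high fat replicate 1. In females 3 were also called by DESeq2, on either TPM scale and with only the 2 groups compared, and 0 with no filter on low counts. Clec4f, the Kupffer cell lectin, changed by 0.45 ± 0.17 in females (adjusted p = 0.0837) and 0.15 ± 0.17 in males (adjusted p = 0.603). Ccr2, the chemokine receptor of inflammatory monocytes, rose in both sexes, by 1.46 ± 0.31 in females (adjusted p = 0.00662, edgeR) and 1.72 ± 0.32 in males (adjusted p = 0.00231). On the high fat diet 7 of the 11 macrophage markers and 5 of the 7 Kupffer markers were called higher in females than in males. Of all tested genes 20.4% were called there in either direction. These list counts were not computed with male high fat replicates 2 and 3 averaged or under other alternatives. Macrophage sums of male replicates 1 and 4 (587 and 518 CPM) lay inside the female range of 449 to 831 CPM. Those of male replicates 2 and 3 (325 and 296 CPM) lay below it. For Kupffer sums only male replicate 1 (408 CPM) reached the female range of 389 to 544 CPM. Krt19, a bile duct keratin, fell by 1.52 in males (SE 0.35, adjusted p = 0.00930, edgeR), from 1.45 ± 0.81 to 0.506 ± 0.056 CPM. Hepatocyte marker sums were lower on the high fat diet without overlap, at 79882 to 96105 CPM against 104487 to 117132 in females. In males they were 53316, 75042, 76362 and 55672 CPM over replicates 1 to 4, against 84166 to 94668 CPM on chow, so replicates 1 and 4 were the low pair. Of the 7 hepatocyte markers 2 fell in females (Tat and Cps1) and 2 in males (Tat and Alb), with median log2 fold changes of -0.04 and -0.34. In females 1 was left without high fat replicate 1 or chow replicate 1 or 4 and on either TPM scale. In males 1 was left without high fat replicate 1 or 4 or chow replicate 1, 2 or 3, on log2(TPM + 1) and with only the 2 groups compared. The part of this shift in the members' changes was not tested.

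**Figure D4:**
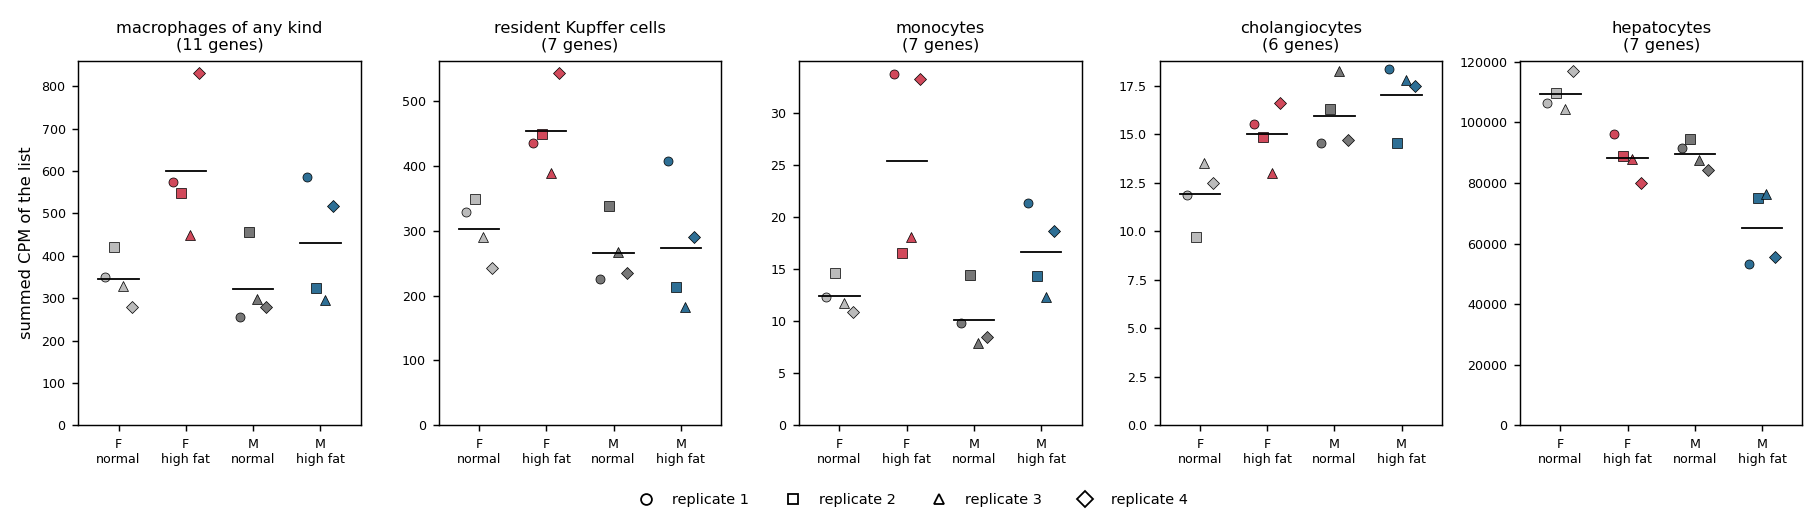
Summed CPM (vertical axis from 0, a scale of its own in each panel) of 5 marker lists in the 16 libraries by sex and diet, with a symbol for each replicate and lines at the means. Monocyte marker sums in high fat females are high in replicates 1 and 4 (33.7 and 33.2 CPM). The summed CPM of the hepatocyte list, not each of its genes, is lower on the high fat diet in both sexes.

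To set the genes against the amount of macrophage RNA, each gene's CPM was divided by the summed CPM of the 11 macrophage markers. In males the share for Gpnmb was 0.0846% ± 0.025 on chow and 0.784% ± 0.35 on the high fat diet, and for Mmp12 0.139% ± 0.064 and 2.26% ± 1.30 (SD, n = 4 each), without overlap, at an exact two-sided permutation p of 0.0286. This is the smallest p that 4 against 4 libraries allow. It is 0.114 after Benjamini-Hochberg adjustment over the 20 ratios tested, so no ratio passes 0.05 when adjusted. For Cd9 the male shares were 3.52% ± 0.20 on chow and 1.36% ± 0.16 on the high fat diet, and for Fabp5 14.2% ± 3.3 and 1.80% ± 1.08, at the same exact p. In females Spp1 was lower against the macrophage markers, at 9.05% ± 1.32 after 16.4% ± 4.0, again at an exact p of 0.0286. Its own mean was 54.8 CPM on chow and 53.8 CPM on the high fat diet, while the summed markers went from 345 to 601 CPM. Spp1, Cd9, Cd63 and Fabp5 are also made by other cells, so their shares are not levels per macrophage. For Cd68 the mean shares on chow and on the high fat diet were 2.40% ± 0.20 and 2.59% ± 0.35 in females and 2.39% ± 0.56 and 2.74% ± 0.47 in males (exact p = 0.429 in each sex). For Trem2 the share in females was 0.127% ± 0.026 on chow and 0.165% ± 0.13 on the high fat diet (exact p = 1), and in males 0.125% ± 0.033 and 0.264% ± 0.077 (exact p = 0.0571).

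**Figure D5:**
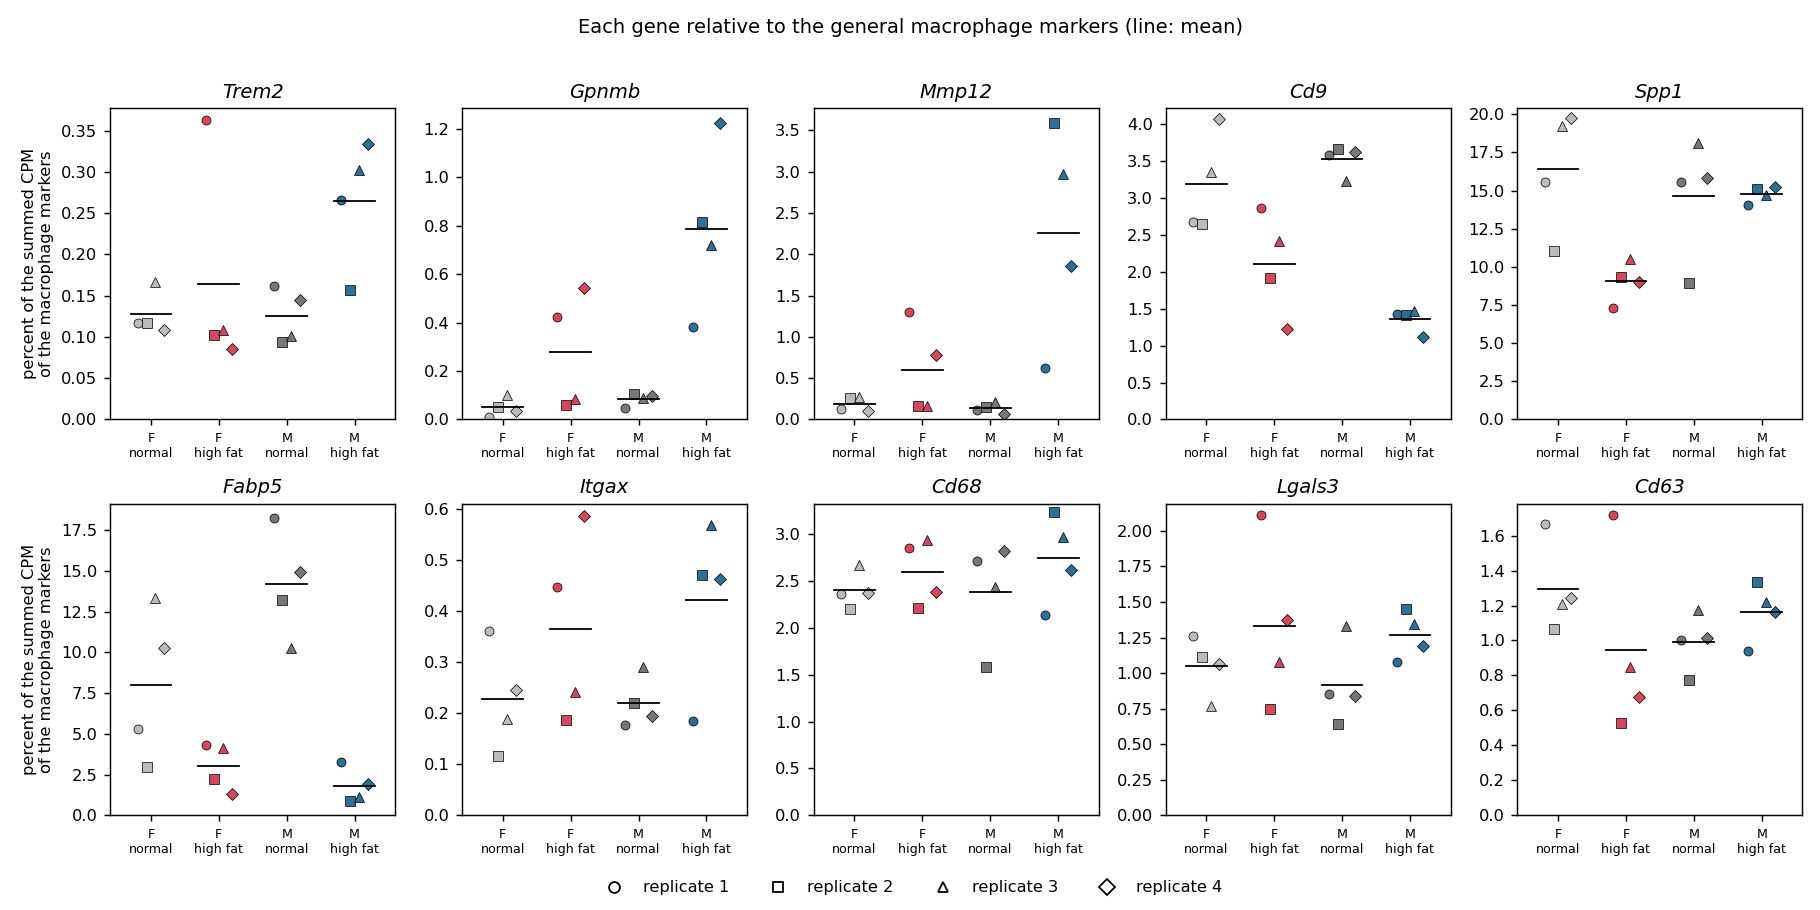
Each gene's CPM as a percent of the summed CPM of 11 general macrophage markers (vertical axis from 0, a scale of its own in each panel) in the 16 libraries, with lines at the group means. In males the diet groups are apart for Gpnmb, Mmp12, Cd9 and Fabp5, and Cd68 lies between 1.58% and 3.24% in all libraries.

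A list of 10 genes held signalling genes beneath TREM2 and also Adam10, Adam17 and Apoe, which are not part of that chain. Of the 8 tested genes of this list, 5 were called higher in females, Tyrobp, Syk, Plcg2, Vav1 and Inpp5d, with a median log2 fold change of 0.78. In males 0 were called by edgeR, DESeq2 or limma and 0 had an unadjusted p under 0.05 by edgeR, with a median of 0.12. The female count was 3 without high fat replicate 1 or chow replicate 1 or 3, and 2 without high fat replicate 4 or chow replicate 4. Tyrobp, the adaptor, went from 4.58 ± 1.20 to 9.45 ± 2.45 CPM in females (1.05 ± 0.24, adjusted p = 0.00910, edgeR) and had 3.42 ± 0.39 and 3.69 ± 1.31 CPM in males (adjusted p = 0.818). Plcg2, the phospholipase below SYK, rose by 1.28 ± 0.26 in females (adjusted p = 0.00519, edgeR), from 1.57 ± 0.31 to 3.83 ± 1.09 CPM. The sex difference of the diet response was not called for either gene (adjusted p = 0.253 for Tyrobp and 0.377 for Plcg2).

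Of 13 other tested genes known from this macrophage state, 7 were called higher in females (Csf1, Capg, Mmp14, Clec7a, Cx3cr1, Vim and Axl) and 4 in males (Lgals1, Csf1, Cx3cr1 and Clec7a), with none lower. The female count was 3 without high fat replicate 4, and 4 without high fat replicate 1 or chow replicate 4 or with no filter on low counts. The male count was 1 without high fat replicate 4 or chow replicate 1, 2 without chow replicate 3, and 3 with male high fat replicates 2 and 3 averaged. Csf1, the macrophage growth factor, rose by 0.83 ± 0.14 in females (adjusted p = 0.00119, edgeR), and by 0.55 ± 0.14 in males (adjusted p = 0.0182). The male call was lost without male high fat replicate 4 (0.0711) or chow replicate 1 or 2 (0.0518 and 0.0582). Capg, an actin-capping protein, rose by 1.43 ± 0.30 in females (adjusted p = 0.00557, edgeR). Its male change of 0.97 ± 0.31 was not called by edgeR (adjusted p = 0.0515), and was called by DESeq2 (0.0294). Lgals1, encoding galectin-1, rose by 1.56 ± 0.34 in males (adjusted p = 0.00835, edgeR), from 6.21 ± 1.91 to 18.2 ± 8.0 CPM. Its female change of 0.90 ± 0.34 was not called by edgeR (adjusted p = 0.0951), and was called by DESeq2 (0.0338). The sex difference of the diet response was not called by edgeR for Capg (adjusted p = 0.710) or Lgals1 (0.604).

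Most genes of lysosomes and lipid handling were not called. Of 25 tested, 1 rose in females (Lpl) and 2 in males (Cd36 and Plin2), with a median of 0.15 in each sex. The female count was 5 by DESeq2, 9 on log2(TPM + 1), 4 with only the 2 groups compared and 2 with no filter on low counts or with male high fat replicates 2 and 3 averaged. It was 2 or 3 without female high fat replicate 1, 2 or 3, male high fat replicate 1 or 3, or male chow replicate 1 or 2. The male count was 4 without male high fat replicate 1 or chow replicate 2, and 1 without chow replicate 1. Lpl, lipoprotein lipase, rose by 1.83 ± 0.36 in females (adjusted p = 0.00625, edgeR), from 12.2 ± 3.5 to 43.1 ± 14.1 CPM. Cd36, a fatty acid and scavenger receptor, rose by 1.66 ± 0.24 in males (adjusted p = 0.000326, edgeR) to 211 ± 91 CPM, near the 174 ± 21 CPM of chow females. Plin2, which coats lipid droplets, rose by 0.81 ± 0.21 in males (adjusted p = 0.0161, edgeR), from 357 ± 75 to 627 ± 44 CPM. Without male chow replicate 1 its adjusted p was 0.0566.

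Among 16 binding partners of the members, 4 rose and 1 fell in females and 4 rose in males. The 5 female calls became 3 without high fat replicate 1 or 4 or chow replicate 1, 3 or 4, and the male calls 1 without high fat replicate 4 and 2 without chow replicate 1 or 4. On log2(TPM + 1) there were 10 female calls, on log2(TPM + 0.1) 9, and with no filter on low counts 3. With only the 2 groups compared 1 male call was made. Itgb5, an integrin chain that binds osteopontin, rose by 0.48 ± 0.08 in females (adjusted p = 0.00155, edgeR) and 0.52 ± 0.08 in males (adjusted p = 0.000740). Lgals3bp, the galectin-3 binding protein, rose by 0.79 ± 0.14 in females (adjusted p = 0.00144, edgeR). Timp3, a metalloprotease inhibitor, fell by 0.78 in females (SE 0.14, adjusted p = 0.00206). Timp1, another such inhibitor, rose by 3.42 ± 0.87 in males (adjusted p = 0.0168, edgeR), from at most 0.114 CPM in any chow library. That call was lost without male high fat replicate 4 (0.0575) or chow replicate 4 (0.0533). In females the Timp1 change of 2.11 ± 0.74 was not called by edgeR (adjusted p = 0.0724), and was called by DESeq2 (0.0464). Of 12 transcription regulators 1 rose and 1 fell in females (Cebpa and Cebpb), and 2 rose and 1 fell in males (Pparg and Spi1, and Tfe3). Only 1 female call was left without high fat replicate 2 or any 1 chow library, and 4 were made without male high fat replicate 1. On either TPM scale 6 female calls were made, by DESeq2 and with only the 2 groups compared 4, and with no filter on low counts 1. Only 1 male call was left without high fat replicate 4 or chow replicate 1 or 3 and on log2(TPM + 1). With male high fat replicates 2 and 3 averaged 2 male calls were left, and Pparg was not called (0.0991). Cebpb fell by 1.15 in females (SE 0.21, adjusted p = 0.00218, edgeR), and Tfe3 fell by 0.47 in males (SE 0.10, adjusted p = 0.00771). Tfe3 was not called on TPM values (0.0719 on log2(TPM + 1)).

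The genes most like the members' mean pattern, after group means were subtracted, were sought among the 11812 genes whose log2 CPM averaged 0 or more. The closest were Ifi47 (r = 0.94, rho = 0.95 over 16 libraries), Sp110 (0.92), Irf8 (0.92) and Ly6e (0.92). They were followed by Anp32b, Zbp1, Meiob and Gm4070, each at r = 0.91. Without high fat female replicates 1 and 4 these 8 genes had r between 0.87 and 0.92. Ifi47, an interferon-inducible GTPase, rose by 1.87 ± 0.32 in females (adjusted p = 0.00223, edgeR) and 1.32 ± 0.31 in males (adjusted p = 0.0150). The genes closest to Trem2 alone were Mcm10, Mthfsd, Eif3g and Serpinh1, at r from 0.91 to 0.89, and those closest to Spp1 were Parp4 (0.95), Galnt7, Mgat5 and C1ra (0.88).

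Some member values rest partly on sequence shared with other genes, between which the estimation divides reads. In GENCODE M21 transcripts, 11.6% of the 50-base words of Spp1 are shared with Gm42793, 8.02% of those of Itgax with Itgad and 5.48% of those of Fabp5 with 5 other genes. For Cd63 11.0% are shared, among others with Cd63-ps. Of the Cd9 words 12.9% occur on the opposite strand of other genes, and Mmp12 overlaps Mmp1b by 157 bases on the opposite strand. Whether strand was used in counting is not given in the sources used here. Gm42793, Itgad, Cd63-ps and Mmp1b had 0 to 0.196 CPM in every library, and Trem2, Cd68 and Lgals3 share no such word.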

How the data were processed

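RNA was measured in 16 mouse liver libraries. Reads were processed with STAR and RSEM on GRCm39, per the submitters' processing notes, whose versions are not given in the sources used here. The authors deposited RSEM expected counts and TPM per gene; 4.89% of the expected counts were not whole, and these were rounded. Symbols were matched to 51487 of 78317 identifiers. Expected counts were scaled by TMM, filtered with filterByExpr and tested with edgeR 4.0.16 in R 4.3.3, with 1 mean for each of the 4 groups and 5 contrasts; SE is the absolute log2 fold change over the square root of F. TPM served only to compare genes and, through limma 3.58.1 on log2(TPM + 1) and log2(TPM + 0.1), as alternatives. DESeq2 1.42.0 was another. The test was checked on simulated data. Members and lists were chosen with earlier results of these data known, and the ratio to macrophage markers was chosen after seeing the data; its permutation test used SciPy and its log2 difference adds 0.1 CPM. Named genes are the members, up to 2 called genes each way per list, sex and diet contrast with the smallest p, 5 fixed genes (Tyrobp, Adgre1, Clec4f, Ccr2 and Krt19), and the genes most like the members' mean, Trem2 or Spp1; of these only some are described. The 161 listed genes make up 5 pathway and 15 marker lists; 1 other listed gene is not reported here. Of the marker lists not described, neutrophils had 2 of 3 tested genes called higher in females and stellate cells and fibroblasts 3 of 8, and acinar cells had 1 of 1 in males. With a library left out these counts became as low as 0 (neutrophils, without female high fat replicate 1 or chow replicate 2, 3 or 4), 1 (stellate cells, without female high fat replicate 1 or 4 or chow replicate 1, 2 or 4) and 0 (acinar cells, without male high fat replicate 2). The neutrophil count was also 1 without female high fat replicate 2 or 4, female chow replicate 1, male high fat replicate 2 or 4 or male chow replicate 3. With no filter on low counts neutrophils and stellate cells had 1 each. Dendritic, endothelial, T and NK, B, adipocyte, mesothelial and red blood cell lists had 0 called in either sex by edgeR, with at most 1 gene a list at an unadjusted p under 0.05; DESeq2 called 1 red blood cell gene in males and limma 1 endothelial gene in females. Promoters were read by symbol from a RefSeq table; the windows' builds differ from that of the counts, so no coordinates were mixed.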

Additional observations from a re-analysis of the deposited data

Results flagged for a closer look

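In 15 of 240 groups of 4 libraries (60 named genes, 4 groups each) the highest or lowest library stood apart from the other 3 by more than Dixon's 95% critical value for 4 values. Chance flags about 1 in 20 groups. Among the members, Trem2 had its high library in high fat females (2.08 CPM) and Gpnmb in high fat males (6.33 CPM). Cd9 had a low library in chow females (9.34 CPM) and high ones in high fat females (16.4 CPM) and chow males (16.7 CPM). Among the other genes, high libraries were those of Plcg2 in high fat females (5.45 CPM), Lpl in chow males (58.3 CPM) and Timp1 in chow males (0.114 CPM). The same held for Col1a1 in high fat males (17.3 CPM), Cps1 in chow males (4258 CPM), Cela2a in chow females (1.01 CPM) and Serpinh1 in high fat females (18.3 CPM). Low libraries were those of Cebpa in chow females (176 CPM), Pparg in chow males (6.59 CPM) and Parp4 in chow males (11.3 CPM).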

How the results depend on the processing

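In males the count of members called stayed within 1.5 times of 6 in each of the 24 alternatives, but the 4 raised ones among them were 2 to 4 with a library left out and 6 with only the 2 groups compared. In females the count of 5 became 2 with no filter on low counts, 3 on log2(TPM + 1), 1 with only the 2 groups compared and 1 to 5 with a library left out. The replicate block gave 3 members in females. Same-numbered libraries correlated between -0.16 and 0.14 across the diets of a sex, and between 0.02 and 0.18 across the sexes on a diet. Differently numbered ones across the sexes ran from -0.13 to 0.09. Whether the numbers mark a shared cage or day is not stated and cannot be told from these values. For the sex difference of the diet response the count of 0 became 1 in the DESeq2 Wald test and 0 to 1 with a library left out. For females against males on the high fat diet the count of 1 became 2 in the DESeq2 Wald test, 2 on log2(TPM + 1), 2 on log2(TPM + 0.1) and 1 to 3 with a library left out. No called member changed direction. On log2(TPM + 1) and log2(TPM + 0.1) the female diet contrast has a median over all genes of 0.15 and 0.22, and the log2 fold change of Gpnmb there is 0.68 in females on log2(TPM + 1). The ratio to macrophage markers changed sign with a library left out for Trem2 and Lgals3 in females and Spp1 in males, called in none. List counts and ratios under the alternatives were added after seeing the data. Trem2, Gpnmb, Mmp12 and Itgax have as few as 1 to 20 counts in some libraries, which limits their precision.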
